A study of Arabidopsis thaliana with 6 samples.

Results

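Plant beta-glucosidases of glycoside hydrolase family GH1 cut glucose from small molecules that the cell stores in a sugar-bound form. Their substrates include defence glucosinolates, coumarins, flavonols, lignin precursors and conjugated hormones, and many family members act in only a few organs. Beta-galactosidases of family GH35 remove galactose from cell wall polymers. The genes described here are those whose symbol in the array's annotation begins with BGLU or BGAL followed by a number, together with PYK10, the beta-glucosidase that is also numbered BGLU23. There were 22 such genes among the 13356 genes that a probe set of the array named alone, and they comprise 20 BGLU genes, PYK10 and a single beta-galactosidase gene, BGAL16. Each had 1 probe set, and all 22 matched a RefSeq locus of assembly TAIR10.1. The symbol rule itself uses no measured value, but it was chosen with earlier results of these data known.

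RNA came from rosette leaves of Arabidopsis thaliana plants aged 21 days, grown in pots for 3 weeks with 12 h of light and ample water. The mutant plants were a double mutant in AT3G03940 and AT5G18190, labelled as a knockdown in one field and as -/- in another, and the others were wild-type Columbia-0. These loci encode the protein kinases MLK2 and MLK1, and one label writes the second locus with a digit missing. There were 3 Affymetrix arrays per genotype, and the labels do not say whether the RNA samples came from separate plants, so p-values measure the spread between these samples, which may be technical. Nor do they say what kind of alleles were combined or how many lines were used.

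The values are log2 expression values made with RMA, a procedure that corrects background, gives all arrays one distribution and summarises the probes of each probe set. A probe set's brightness depends on its probes, so members are compared between genotypes and their amounts are not compared with each other. Brightness serves below only to place members in classes, and a low value may come from the probes. Differences are double mutant minus wild type on the log2 scale, tested with limma, with the Benjamini-Hochberg method across 22746 probe sets, and a difference is called where the adjusted p is under 0.05. AT5G18190 read 3.42, 3.57 and 3.36 in the double mutant arrays, against 7.92, 7.74 and 7.63 in the wild-type arrays. AT3G03940 was not analysed here. Arrays correlated at 0.997 to 0.998 within the double mutant, 0.993 to 0.996 within the wild type and 0.967 to 0.970 between genotypes. The array's control for ribosomal RNA of the 25S kind read 12.1 to 12.3 in double mutant arrays and 5.45 to 6.81 in wild-type arrays. Of 6 log2 ratios of 5′ over 3′ control probe sets, 3 (of actin and GAPDH) were higher in all double mutant arrays than in any wild-type array, 1 (of ubiquitin) was lower, and 2 overlapped. The differences of these ratios ran from -0.19 to 0.67. The controls whose groups are separate move with genotype across every result below, and their part in the results was not tested.

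Members were placed by their mean over all 6 arrays within the distribution of all probe sets. Leaf-expressed members lay at or above the median, 5.88, and silent members lay below the lower quartile, 3.76. Silent thus means a low value on these arrays, and whether the transcript was present was not tested. There were 9 leaf-expressed members, namely PYK10, BGLU44, BGLU28, BGLU16, BGLU33, BGLU42, BGLU40, BGLU25 and BGLU15, with means of 6.35 to 11.6. There were 8 silent members, namely BGLU27, BGLU41, BGLU31, BGLU47, BGLU36, BGLU29, BGLU24 and BGLU32, with means of 2.83 to 3.46. The other 5, BGLU46, BGLU45, BGAL16, BGLU19 and BGLU43, lay in between, with means of 3.82 to 5.003. The members nearest the limits were BGLU15 at 6.35 and BGLU46 at 5.003 on either side of the median, and BGLU43 at 3.82 and BGLU27 at 3.46 on either side of the lower quartile.

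**Figure D1:**
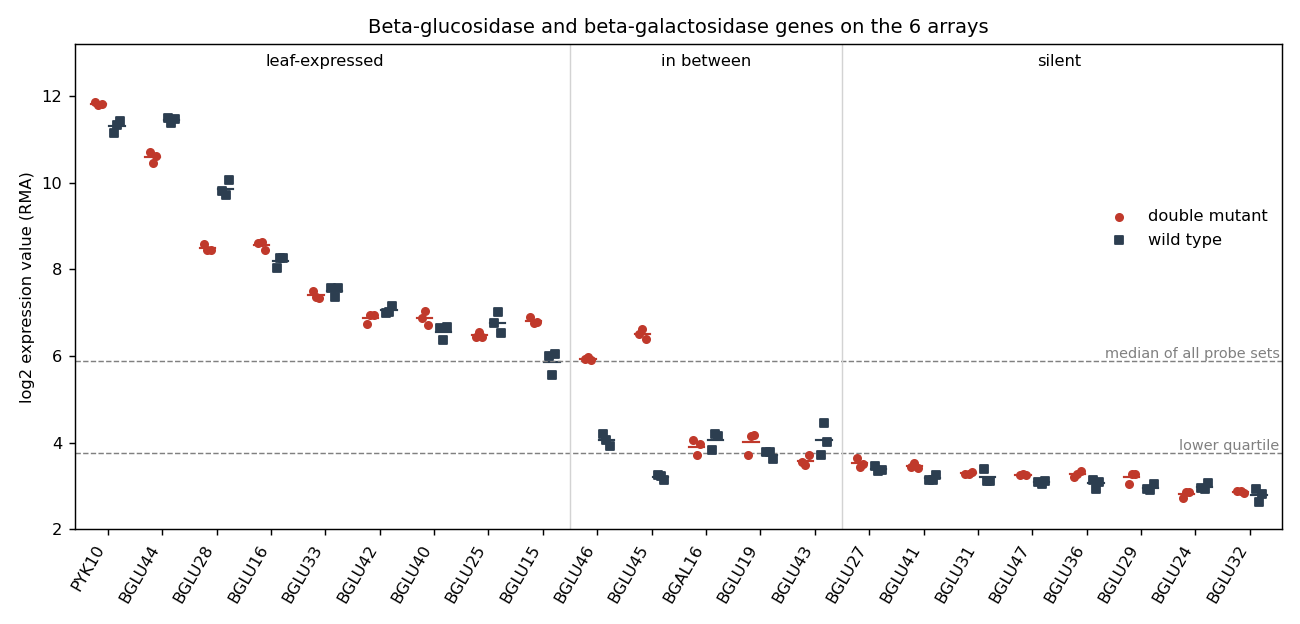
Log2 expression value (y axis) of each of the 22 members (x axis, in order of the mean over 6 arrays) on every array, with red circles for the double mutant, dark squares for the wild type and a short line at each group's mean (n = 3). Dashed lines mark the median (5.88) and the lower quartile (3.76) of all probe sets. In the double mutant BGLU45 lies above the median and BGLU46 just above it, and both lie well below it in the wild type.

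Of the 22 members, 10 (45.5%) changed between the genotypes, 7 of them higher and 3 lower in the double mutant, and 12 did not pass. Over all probe sets 38.5% were called, 19.8% higher and 18.7% lower, so the members' share lay near the background. The median difference was 0.15 over the members and -0.01 over all probe sets. A difference of at least 1 was found for 3 members, BGLU45, BGLU46 and BGLU28, where 7.1% of all probe sets were called with such a difference. The arrays of the genotypes did not overlap for 14 members (63.6%), against 49.7% of all probe sets. The count of 10 called members was 6 (4 higher and 2 lower) when double mutant replicate 2 was left out and 8 to 10 when any other single array was left out.

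Of the 9 leaf-expressed members 6 were called, and of the 8 silent members 1. This difference between the classes was not tested, and the whole table differs in the same direction. The classes rest on the mean over both genotypes and so are not independent of the differences. A member that reads high in either genotype can hardly have a mean in the silent range. BGLU15, with a wild-type mean of 5.87, reached the median of 5.88 only through its double mutant arrays. Among the 9 leaf-expressed members 4 rose, 2 fell and 3 did not pass, 66.7% called against 50.9% of all probe sets in the same range, where 26.3% were higher and 24.6% lower. Among the 8 silent members 1 rose, none fell and 7 did not pass, a share close to the 10.7% of silent probe sets that were called (4.29% higher and 6.4% lower). Of the 5 members in between, 2 rose, 1 fell and 2 did not pass, against 41.6% called in that range (22.4% higher and 19.2% lower). The median absolute difference was 0.38 in leaf-expressed members and 0.17 in silent members, against 0.29 and 0.10 for all probe sets of those ranges. The members' largest differences belonged to neither class, as BGLU45 and BGLU46 lay in between. Their means join a level above the array medians in the double mutant, for BGLU46 only just above, with a low one in the wild type.

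**Figure D2:**
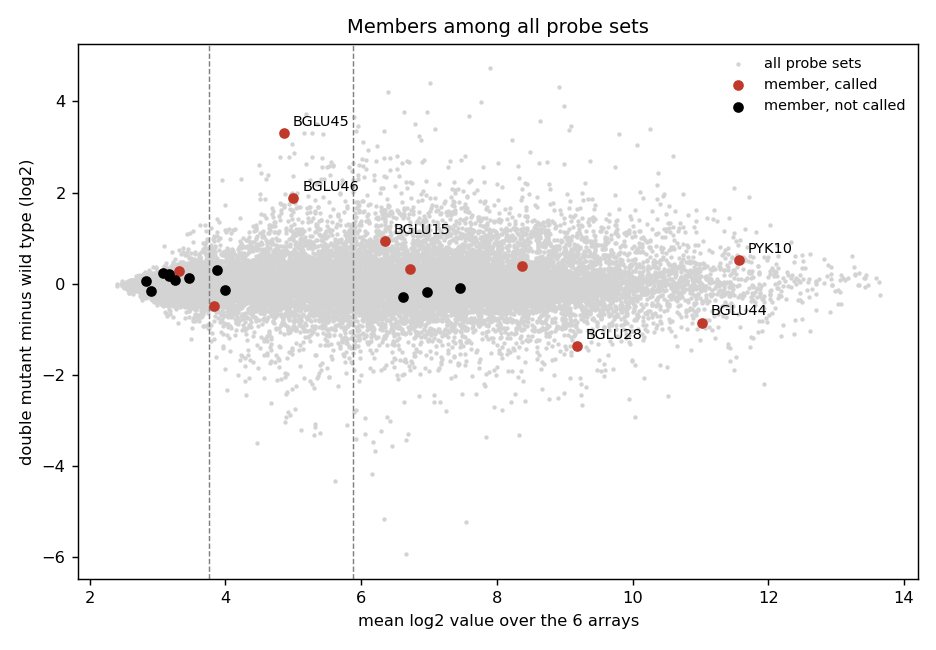
Difference between double mutant and wild type (y axis, log2) against the mean log2 value over the 6 arrays (x axis) for all 22746 tested probe sets (grey), called members (red) and members not called (black). Dashed vertical lines mark the lower quartile (3.76) and the median (5.88) of all probe sets; silent members sit in the narrow left end of the cloud, and BGLU45, at 3.29, lies near its upper edge.

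BGLU45 and BGLU46, which release monolignols, the building blocks of lignin, from their glucosides, rose most among the members. BGLU45 read 6.51, 6.62 and 6.40 in the double mutant arrays, against 3.26, 3.23 and 3.15 in the wild-type arrays. All 3 double mutant values lay above the median of their array and all 3 wild-type values below the lower quartile of theirs, near the background. The means were 6.51 ± 0.11 in the double mutant and 3.21 ± 0.06 in the wild type (SD, n = 3 each), a difference of 3.29 (SE 0.09, limma adjusted p = 4.54e-09). With the wild-type values raised to the lower quartile of their arrays, which serves as a floor here, BGLU45 was at least 6.73-fold higher in the double mutant.

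BGLU46 read 5.93, 5.97 and 5.92 in the double mutant arrays, against 4.21, 4.06 and 3.93 in the wild-type arrays. The 3 double mutant values were only just above the medians of their arrays, 5.90, 5.88 and 5.87. The wild-type values lay a little above the lower quartile. Its difference was 1.88 (SE 0.10, limma adjusted p = 1.37e-07), or 3.67-fold. BGLU47, which is related to these genes in sequence, was silent in both genotypes, at 3.26 ± 0.02 in the double mutant and 3.09 ± 0.04 in the wild type (SD, n = 3 each). Its arrays did not overlap, but the difference of 0.17 did not pass (95% interval -0.01 to 0.36, limma adjusted p = 0.127).

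A list of 9 genes of phenolic glucoside metabolism was also followed, and 6 of them were measured. Only some of the listed genes encode enzymes that attach sugars to monolignols or flavonols. Here and below a listed gene counts as measured where the annotation names a probe set for it alone; with 8730 of 22746 probe sets unnamed, other listed genes may be on the array without a name. UGT72E1, UGT72E2 and UGT72E3, which attach glucose to monolignols and related compounds, did not pass, with differences of 0.11, 0.35 and -0.05. The groups of UGT72E2 did not overlap (95% interval 0.02 to 0.68, limma adjusted p = 0.091). UGT72E3 was in the silent range, so its small difference says little. The gene of that list that passed was UGT78D1, which attaches rhamnose to flavonols. It read 6.81, 6.73 and 6.93 in the double mutant arrays, against 8.01, 8.28 and 7.96 in the wild-type arrays, a fall of 2.39-fold (limma adjusted p = 5.11e-06). Its relative UGT78D2, which attaches glucose to the same position, differed by 0.09 (adjusted p = 0.516). The UGT72E genes and UGT78D2 were named after their values were seen.

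BGLU15, which removes glucose from a flavonol bisglycoside, rose in the double mutant. It read 6.90, 6.76 and 6.80 in the double mutant arrays, against 6.01, 5.57 and 6.05 in the wild-type arrays. The groups did not overlap, although wild-type replicate 2 was low against the other wild-type arrays. The means were 6.82 ± 0.07 in the double mutant and 5.87 ± 0.27 in the wild type (SD, n = 3 each), a difference of 0.94 (SE 0.13, limma adjusted p = 0.000154), or 1.92-fold.

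BGLU28 fell most among the members. Together with BGLU30 it is known to break down glucosinolates when sulfur is short, and BGLU30 was not analysed here. BGLU28 read 8.59, 8.44 and 8.45 in the double mutant arrays, against 9.81, 9.72 and 10.06 in the wild-type arrays. Every double mutant value was thus more than 1 log2 unit below every wild-type value. The means were 8.50 ± 0.08 in the double mutant and 9.86 ± 0.18 in the wild type (SD, n = 3 each), a difference of -1.36 (SE 0.11, limma adjusted p = 2.77e-06), or 2.57-fold lower.

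BGLU44, whose protein prefers mannose-containing substrates, also fell. It read 10.71, 10.45 and 10.63 in the double mutant arrays, against 11.49, 11.37 and 11.48 in the wild-type arrays, with no overlap. The difference was -0.85 (SE 0.10, limma adjusted p = 4.28e-05), or 1.80-fold lower. BGLU43, its neighbour in the genome, read 3.55, 3.49 and 3.72 in the double mutant arrays, against 3.71, 4.46 and 4.03 in the wild-type arrays. The groups of BGLU43 overlapped, and its double mutant values were near the background. The fall of 0.48 (SE 0.16, limma adjusted p = 0.0356) had a 95% interval of -0.84 to -0.13. It came to 1.24-fold between the means when the double mutant values were raised to the lower quartile. It no longer passed without wild-type replicate 2, where the difference was -0.29 and the adjusted p 0.0852. Nor did it pass without wild-type replicate 3, double mutant replicate 1 or double mutant replicate 2, with adjusted p of 0.0647, 0.101 and 0.118.

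PYK10, the main beta-glucosidase of ER bodies, is an enzyme of roots and seedlings that acts on indole glucosinolates. It read 11.86, 11.80 and 11.81 in the double mutant arrays, against 11.15, 11.34 and 11.43 in the wild-type arrays. All 6 values lay far above the array medians, and the genotypes did not overlap. The means were 11.82 ± 0.03 in the double mutant and 11.31 ± 0.14 in the wild type (SD, n = 3 each), a difference of 0.52 (SE 0.10, limma adjusted p = 0.0015), or 1.43-fold. Its close relatives BGLU21 and BGLU22, which cut the coumarin glucoside scopolin in roots, share a probe set and so are not members. That probe set read 6.76, 6.82 and 6.42 in the double mutant arrays, against 4.11, 3.57 and 3.94 in the wild-type arrays. It was 6.92-fold higher in the double mutant (difference 2.79, SE 0.15, limma adjusted p = 1.7e-07), and which of these genes gave the signal cannot be told apart. Whether the probes of PYK10 and of this probe set also pick up each other's transcripts was not tested, so neither difference is certain to belong to its named gene alone.

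Most measured genes that work with PYK10 rose as well. In a list of 14 ER body genes and proteins found in complex with PYK10, 6 were measured, and 5 of these rose while 1 did not pass; their median difference was 0.97. Over all probe sets 19.8% were higher. Most of the 6 lay in the leaf-expressed range, where 26.3% were higher, and the others in between, where 22.4% were. The list was chosen with earlier results of these data known, so its count is not independent of them. JAL23, a jacalin-related lectin of the PYK10 complex, read 6.02, 6.14 and 6.08 in the double mutant arrays, against 4.48, 4.41 and 4.30 in the wild-type arrays. The lectin genes JAL22 and JAL33 were 2.17-fold higher each, with limma adjusted p of 3.3e-06 and 2.25e-06. JAL34 was 1.60-fold higher (adjusted p = 0.000132), and NAI2, whose protein is needed for ER bodies to form, was 1.78-fold higher (adjusted p = 5.18e-05). NAI1, the transcription factor that drives PYK10 and NAI2, was at 5.54 ± 0.25 in the double mutant and 5.55 ± 0.21 in the wild type (SD, n = 3 each, limma adjusted p = 0.979). The interval of its difference was -0.32 to 0.31. JAL34, NAI2 and NAI1 were singled out with their values known. This list had 5 calls in each of the fits that left out 1 array.

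**Figure D3:**
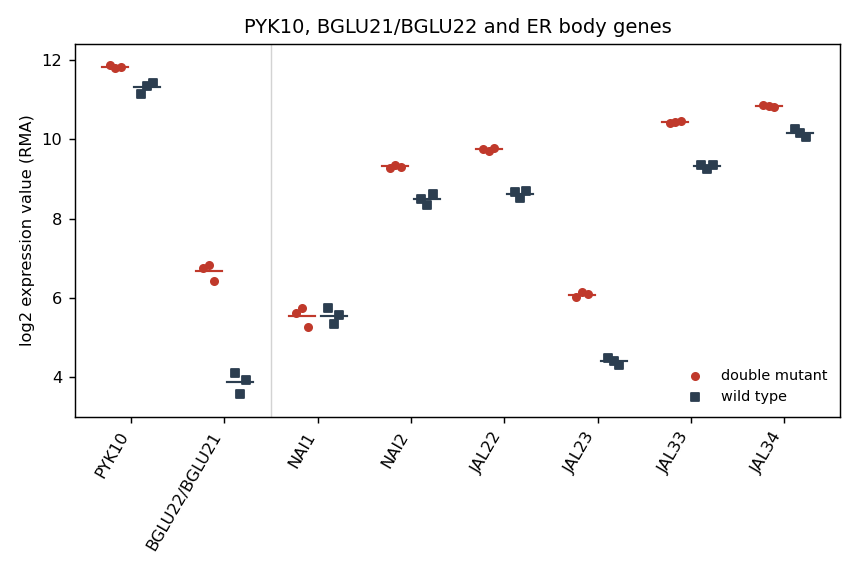
Log2 expression value (y axis) of PYK10, the probe set shared by BGLU21 and BGLU22, and the 6 measured ER body and PYK10 complex genes (x axis) on each array, with red circles for the double mutant, dark squares for the wild type and lines at group means (n = 3). The genotypes do not overlap except for NAI1, where the means are 5.54 and 5.55.

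Since PYK10, BGLU21 and BGLU22 are root genes, root markers were read beside them. Of 8 root markers 2 were measured, the root hair expansins EXPA7 and EXPA18. They ranged from 3.74 to 4.20 in the double mutant arrays and from 3.68 to 4.19 in the wild-type arrays, and neither passed (limma adjusted p = 0.289 and 0.277). Both had a mean of 3.96, close to the lower quartile of 3.76, so their small differences say little about root tissue. The only measured leaf marker, the Rubisco activase gene RCA, read 13.5 to 13.6 in the double mutant and 12.9 to 13.0 in the wild type and rose by 0.60. FAMA, a regulator of guard cells and of the myrosin cells that hold classical myrosinases, differed by -0.17 (adjusted p = 0.272). In rosette RNA a different number of cells of a type and a different amount of RNA per cell cannot be told apart.

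Smaller changes were found for BGLU16 and BGLU40. BGLU16 read 8.62, 8.64 and 8.45 in the double mutant arrays, against 8.03, 8.27 and 8.26 in the wild-type arrays, a rise of 1.31-fold (limma adjusted p = 0.0117). Without double mutant replicate 2 its adjusted p was 0.0574. BGLU40 read 6.88, 7.04 and 6.73 in the double mutant arrays, against 6.64, 6.38 and 6.68 in the wild-type arrays. The groups of both genes were separate, that of BGLU40 by a narrow gap. BGLU40 was 1.25-fold higher, with a limma adjusted p of 0.0497 that lay just inside the threshold. That call was lost without double mutant replicate 1 or 2 or wild-type replicate 1 or 2, with adjusted p of 0.115, 0.2, 0.056 and 0.137.

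BGLU33, which frees abscisic acid from its glucose ester in the vacuole, BGLU42, which acts in the release of coumarins and in systemic resistance in roots, and BGLU25 did not pass. BGLU33 read 7.49, 7.37 and 7.35 in the double mutant arrays, against 7.57, 7.36 and 7.57 in the wild-type arrays. The difference was -0.10 (95% interval -0.31 to 0.12, limma adjusted p = 0.479), and the groups overlapped. BGLU42 read 6.74, 6.96 and 6.95 in the double mutant arrays, against 6.99, 7.03 and 7.16 in the wild-type arrays. Its groups were separate, with a difference of -0.18 (95% interval -0.39 to 0.04, limma adjusted p = 0.186). BGLU25 read 6.43, 6.56 and 6.44 in the double mutant arrays, against 6.78, 7.01 and 6.53 in the wild-type arrays. Its difference was -0.29 (95% interval -0.56 to -0.03, limma adjusted p = 0.0802). It passed without wild-type replicate 3, with a difference of -0.42 and an adjusted p of 0.0154.

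Of the abscisic acid genes, only LTI30, a dehydrin that the hormone induces, was measured among 10 listed, and it rose by 0.66 (limma adjusted p = 0.000549). F6'H1 (AT3G13610), which makes the coumarin scopoletin, differed by 0.20 (adjusted p = 0.143); it was named after its values were seen. No gene of the lists of glucosinolate breakdown and of sugar starvation and darkness is named alone by a probe set in the annotation used here, so these lists were not analysed.

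BGAL16, the only one of 17 listed GH35 genes that could be followed by name, did not pass. It read 4.06, 3.72 and 3.96 in the double mutant arrays, against 3.84, 4.20 and 4.15 in the wild-type arrays, with overlapping groups. The difference was -0.15 (95% interval -0.42 to 0.13, limma adjusted p = 0.392). Among other enzymes that trim cell wall sugars, 3 of 15 listed genes were measured, of which 1 fell and 2 did not pass. BXL7 (AT1G78060), a beta-xylosidase, read 7.10, 7.28 and 7.07 in the double mutant arrays, against 8.14, 8.08 and 8.15 in the wild-type arrays, or 1.97-fold lower (limma adjusted p = 1.06e-05).

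BGLU19 lay close to the lower quartile in both genotypes. It read 3.72, 4.17 and 4.18 in the double mutant arrays, against 3.78, 3.78 and 3.62 in the wild-type arrays. Double mutant replicate 1 fell within the wild-type range and the other two arrays above it. The difference of 0.30 did not pass (95% interval 0.01 to 0.58, limma adjusted p = 0.094), but passed at an adjusted p of 0.0105 without double mutant replicate 1.

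The silent members all read between 2.64 and 3.64 on every array. BGLU41 was the only one called. It read 3.44, 3.53 and 3.43 in the double mutant arrays, against 3.15, 3.14 and 3.25 in the wild-type arrays, a difference of 0.29 (SE 0.09, limma adjusted p = 0.0238). Both groups were below the lower quartile of every array, so no fold is given. The call was lost without double mutant replicate 1 or 2 or wild-type replicate 1, with adjusted p of 0.0557, 0.104 and 0.0543, and after centring each array on its median, with 0.0571. BGLU41 was also the only member in the chromosome 5 stretch from AT5G40450 to AT5G55000. In that stretch, chosen on these arrays for being raised, 451 of 753 measured genes were higher in the double mutant and 29 were lower.

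The other 7 silent members had differences from -0.16 to 0.24. Their intervals together spanned -0.36 to 0.45. BGLU36, of the branch that holds the classical myrosinases, read 3.21, 3.27 and 3.36 in the double mutant arrays, against 3.15, 2.94 and 3.10 in the wild-type arrays (limma adjusted p = 0.101). BGLU29 had means of 3.20 ± 0.13 in the double mutant and 2.96 ± 0.07 in the wild type (SD, n = 3 each, limma adjusted p = 0.0759), and passed at 0.0457 without double mutant replicate 1. BGLU24 was the only silent member with a negative difference, -0.16 (adjusted p = 0.179). The remaining ones, BGLU27, BGLU31 and BGLU32, had overlapping groups and differences of 0.13, 0.09 and 0.07. The groups did not overlap for 5 of the 8 silent members, against 25.2% of silent probe sets and 7 of 9 leaf-expressed members, where the share of probe sets was 62.7%.

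**Figure D4:**
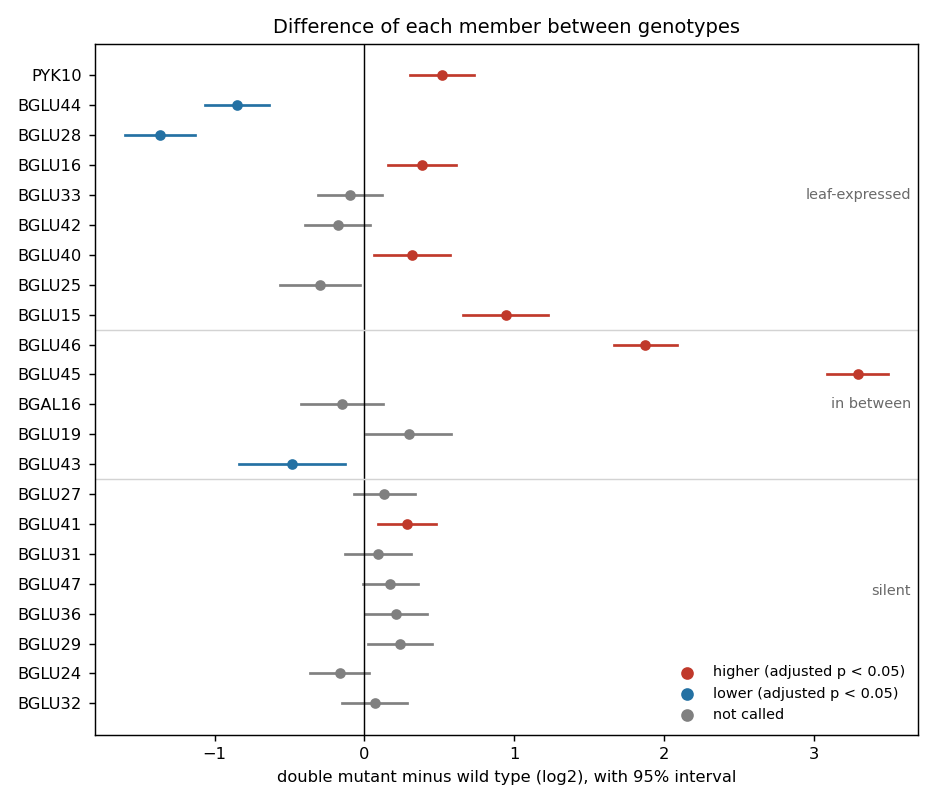
Difference between double mutant and wild type (x axis, log2) of each member (y axis, in order of mean level), with its 95% interval from limma; red is called higher, blue called lower and grey not called. BGLU45 (3.29) and BGLU46 (1.88) lie far to the right and BGLU28 (-1.36) farthest to the left, while the 8 silent members lie between -0.16 and 0.29.

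A further family member, BGLU20, carries the symbol ATA27 on the array and so fell outside the symbol rule. It is known from the tapetum of anthers. It read 3.12, 3.21 and 3.50 in the double mutant arrays, against 3.90, 4.17 and 4.63 in the wild-type arrays, and was at least 1.40-fold lower with its double mutant values raised to the lower quartile (limma adjusted p = 0.00097). The tapetum gene A9 (AT5G07230), the only measured one of 6 flower and anther markers, read 3.53, 3.55 and 3.72 in the double mutant arrays, against 4.21, 4.89 and 4.61 in the wild-type arrays. It fell as well, by 1.77-fold between the means with its double mutant values raised to the lower quartile (limma adjusted p = 0.000415). Its part in the change of ATA27 was not tested. Of 48 GH1 loci listed, the annotation names 22 alone on a probe set, the 21 beta-glucosidase members and ATA27; the others were not analysed on their own. The 3 listed seed markers are not named in it and were not analysed here.

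Several members stand next to each other in the genome, which the choice by symbol did not use. With family genes counted as one run where at most 3 other protein-coding genes lie between them, 5 runs held more than 1 member. In the run of BGLU45 and BGLU46 both rose, by 3.29 and 1.88. The nearest measured genes on either side, AT1G61780 and AT1G61840, differed by 0.30 (called higher) and -0.04 (not called). Further out, AT1G61850 was called higher, by 0.38, and AT1G61760, AT1G61770 and AT1G61860 were not called. In the run of BGLU43 and BGLU44 both fell, by 0.48 and 0.85, although the groups of BGLU43 overlapped. Their nearest measured neighbours AT3G18060 and AT3G18120 differed by -0.05 and -0.02, neither of which was called. Further out, AT3G18050 was called lower, at -0.67, and HON4 was called higher, at 0.48. AT3G18170 and AT3G18180 were not called.

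The run of BGLU15, BGLU28 and BGLU29 on chromosome 2 held changes in both directions. BGLU15 rose by 0.94, the adjacent BGLU28 fell by 1.36 and BGLU29, next in line, was silent and not called. The flanking genes AT2G44430 and AT2G44500 were lower, with -0.34 and -0.41. Further out, AT2G44420 was called lower, at -0.45, and AT2G44380 was called higher, at 2.29. AT2G44510 and AT2G44525 were not called. In the run of BGLU27 and BGLU16, BGLU16 rose by 0.38 and the silent BGLU27 was not called. Of the genes flanking that run, AT3G60070 was lower, at -0.94, AT3G60080 was higher, at 0.83, and the other measured ones were not called. In the run of BGLU31 and BGLU32 both were silent and not called. Around that run AT5G24490, AT5G24500 and AT5G24510 were higher, by 0.27, 0.61 and 0.26. AT5G24570 and AT5G24580 were lower, at -0.74 and -1.02, and AT5G24600 was not called. Neighbouring family genes are related in sequence, and whether their probes also pick up each other's transcripts was not tested. The flanking genes are named for their position only.

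**Figure D5:**
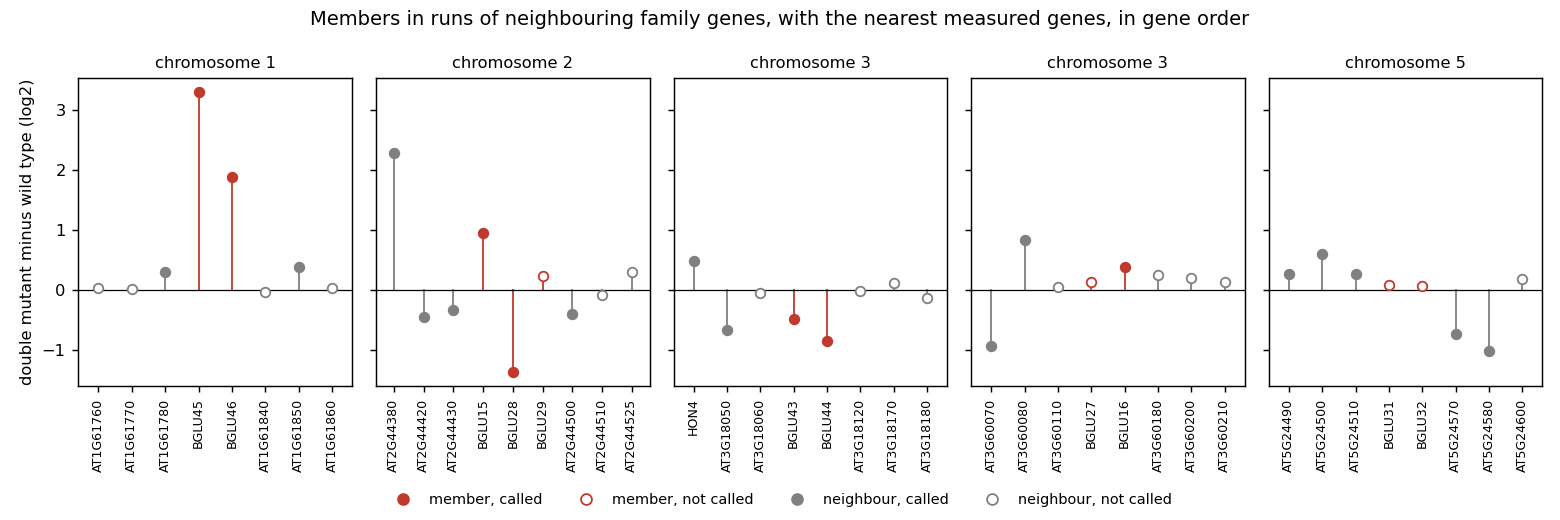
Difference between double mutant and wild type (y axis, log2) for the 5 runs of neighbouring family genes with more than 1 member, 1 panel each, with up to 3 nearest measured genes on either side; genes are in chromosome order (x axis, not to scale). Red is a member and grey a neighbour, and filled circles are called: BGLU45 and BGLU46 stand above their neighbours, while BGLU15 (0.94) and BGLU28 (-1.36) point in opposite directions.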

How the data were processed

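Log2 expression values of 6 arrays were used as the authors deposited them; the submitters' processing notes list RMA, limma and R 2.9.0. The authors' deposited table of log2 differences, p-values and a log odds score served as an alternative; its log2 differences matched the differences of group means to within 6.66e-09, which sets their direction. The 64 control probe sets were left out, which leaves 22746. All of these entered a two-sided limma 3.58.1 fit (R 4.3.3, lmFit and eBayes) with genotype alone in the model and Benjamini-Hochberg adjustment, with a median of 10.6 total degrees of freedom.

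Genes were named through the array's dated annotation table: 13513 probe sets name 1 gene, 503 several, and 8730 are unnamed here. RefSeq TAIR10.1 served for loci and gene order; the authors' build is not given in the sources, and no coordinates or sequences are printed. Members and gene lists were chosen with earlier results of these data known. All members may be named. From other lists, the rule was up to 3 called genes with the smallest adjusted p, or the one with the largest statistic. EXPA7, the flanking genes and the genes marked above as named with their values known go beyond this rule. A gene counts as near the background where each array of a group reads below its own lower quartile.

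Simulated data had 22746 probe sets with the real means and spreads, of which 200 were changed. With a change of 1, 90.5% to 92% of the 200 were called, and with a change of 0.5, 0% to 21%. In the real data 8757 probe sets were called, which makes the adjusted threshold less strict than in the simulation. These shares therefore do not say how many real differences of such sizes were missed. The number of arrays limits the precision. Without scan dates, batches were not examined. Alternatives were a low-signal filter, median centring, another variance model, a replicate block, leaving out each array, other class limits, other membership, a stricter call and the authors' table. Work outside R used Python 3.11.15, numpy 2.4.6, pandas 2.3.3 and matplotlib 3.10.9.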

Additional observations from a re-analysis of the deposited data

How the results depend on the processing

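Under the alternatives that change the fit or the members, 8 to 11 members were called: 9 with the low-signal filter (which keeps 14 members), 9 with median centring, 10 with trend and robust variances, 10 in the authors' deposited table, 11 with ATA27 added and 9 without the chromosome 5 stretch. With a difference of at least 1 required as well, 3 members were called, 2 higher and 1 lower, of which 1 was leaf-expressed and 0 were silent; 1614 probe sets and 3 ER body genes were then called. The count of silent members called was 0 with the low-signal filter, with median centring, with the replicate block and without the chromosome 5 stretch, 2 with trend and robust variances, 2 with ATA27 added and 4 with silent taken as below the median. Leaving out 1 array at a time gave 6 to 10 members called (4 to 7 higher, 2 to 3 lower), 4 to 7 leaf-expressed and 0 to 1 silent members, 5 ER body genes, and 6985 to 8834 probe sets, against 8757 with all arrays. With the replicate block 8 members, 5 of them leaf-expressed, and 8095 probe sets were called; the adjusted p of BGLU40 was then 0.0827 and that of BGLU41 0.0568. Same-numbered arrays did not deviate together (correlations of -0.08, -0.10 and -0.16). With 3 arrays per genotype this cannot show whether the numbers pair the samples, and the labels do not say. BGLU40 did not pass with median centring (adjusted p 0.0899) or with trend and robust variances (0.051). BGLU25 passed with median centring (0.0462) and BGLU29 with trend and robust variances (0.0474). BGLU32, not called, ranged from -0.0086 to 0.14 over fits without 1 array, NAI1 from -0.12 to 0.13 and UGT72E3 from -0.11 to 0.06. The calls of BGLU45, BGLU46, BGLU15, BGLU28, BGLU44 and PYK10 held in every fit without 1 array. No member had another probe set, so that alternative gave no value. The cause of these shifts was not tested.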
